A study of Mus musculus with 10 samples.

Results

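The scavenger receptor genes of liver sinusoidal endothelium were examined in mice with and without a Gata4 deletion in these cells. They are a set of 10 genes (Stab1, Stab2, Lyve1, Mrc1, Fcgr2b, Scarb1, Scarb2, Scarf1, Lrp1 and Dab2), taken by name out of 24704 named genes on the array, and all 10 were measured. The set was chosen with earlier results of these data known. RNA of primary liver sinusoidal endothelial cells was hybridised to 1-colour Affymetrix arrays, 5 labelled Gata4-LSEC-KO and 5 labelled control (WT), each from a pool of 3 mice. The knockout animals carried the driver transgene C57BL/6N-Tg(Clec4g-icre)1.1Sgoe, in which Cre follows Clec4g, a gene of sinusoidal endothelium, and a floxed Gata4 gene (Gata4tm1.1Sad). The controls were siblings labelled WT, and their alleles at these loci, like the age and sex of the animals, were not stated. Per the labels, livers were digested with collagenase and spun on Nycodenz, and beads against CD146 then picked out endothelial cells. The pool of 3 mice is the replicate, so p-values set the difference between groups against the spread between pools.

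Sinusoidal endothelial cells are the main scavenger endothelium of the body. They remove soluble macromolecules such as hyaluronan, modified lipoproteins, collagen chains and small immune complexes from the blood by clathrin-mediated endocytosis and degrade them in lysosomes. Uptake starts with receptors at the surface (the stabilins, the mannose receptor, the Fc receptor FcgammaRIIb, the class B and class F scavenger receptors and LRP1). Adaptors such as DAB2 then couple receptors to the clathrin coat. GATA4 is a zinc finger transcription factor that directs the sinusoidal type of liver endothelium during development.

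In the mouse assembly GRCm38.p6, as annotated by RefSeq, the 10 genes lie apart on 8 chromosomes. Stab1 spans chr14:31139017-31168651 and Stab2 chr10:86841194-87008038. Mrc1 spans chr2:14229414-14332023, Lyve1 chr7:110850607-110862953 and Fcgr2b chr1:170960558-170976071. Scarb1 (chr5:125277087-125341094) and Scarb2 (chr5:92441311-92505657) share a chromosome, as do Stab2 and Lrp1 (chr10:127538157-127621148). Scarf1 spans chr11:75513489-75526582 and Dab2 chr15:6299788-6440715. The array reads 1 summary value per gene and does not tell exons or isoforms apart.

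The arrays carried endothelial RNA with RNA of other liver cells. The means of a list of 10 pan-endothelial markers, among them Pecam1 and Cdh5, lay between 9.71 and 10.18 (log2 units) in the knockout arrays and between 9.77 and 10.04 in the controls. Each array's median over all probe sets was 3.71. Kupffer cell and macrophage markers (10 genes) averaged 7.08 to 8.03 in the knockout arrays and 5.48 to 8.37 in the controls, with control replicate 1 lowest. Hepatocyte markers (10 genes) averaged 7.04 to 8.67 against 6.92 to 7.39, and within that list Tat and Hp rose while Cyp2e1 fell. Neutrophil and monocyte markers (8 genes, 3 of them higher by limma) averaged 3.96 to 5.55 against 3.09 to 3.76, and every knockout array was above the controls in the mean of cholangiocyte markers (6 genes, 2 higher), at no less than 5.07 against no more than 4.80. The part of these cells in the results was not tested except where a covariate is given. Control replicate 1 stood apart, with correlations across genes of 0.920 to 0.944 with the other arrays against 0.969 to 0.988 among those. The Gata4 probe set was at 8.59 ± 0.24 (SD, n = 5) in the knockout arrays against 8.71 ± 0.15 (SD, n = 5), and by limma its adjusted p was 0.742. The sources do not place its probes inside or outside the floxed part, so this value does not check the labels.

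Among the 10 genes, Scarb2 and Mrc1 fell in the knockout and the other 8 did not pass the threshold, which was an adjusted p under 0.05 by limma over all 24704 genes. Of all genes 2.14% passed, made up of 0.846% of all genes that were lower and 1.30% that were higher in the knockout. At an unadjusted p under 0.05 there were 6 of the 10 genes, against 13.6% of all genes, and 5 of them lay lower, against 6.57% of all genes. The log2 fold change (knockout minus control) lay below 0 for 7 genes and above 0 for 3, with a median of -0.27 beside -0.02 over all genes. The groups did not overlap for 4 of the 10 genes, against 4.93% of all genes. In Stab2, Mrc1 and Scarb2 every knockout array lay below every control, which held for 2.37% of all genes. In Scarb1 every knockout array lay above every control, as in 2.55% of all genes. Because the 10 genes were chosen with earlier results of these data known, these shares do not test the set. In bulk RNA, fewer cells of a type and less RNA per cell cannot be told apart.

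**Figure D1:**
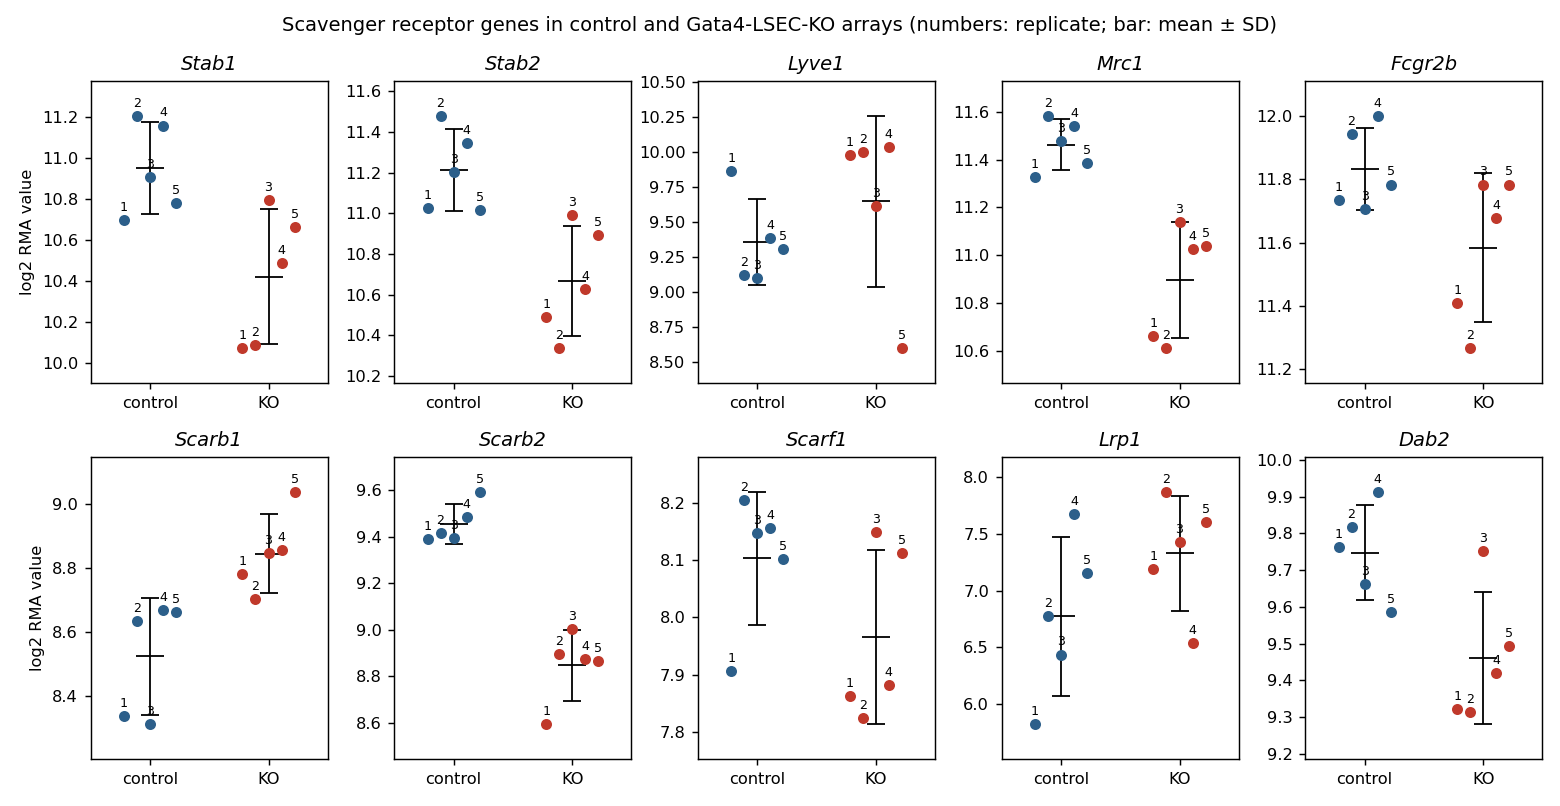
Log2 RMA value of each of the 10 genes on the y axis, in the 5 control and 5 Gata4-LSEC-KO (KO) arrays, with the replicate number above each point and the mean ± SD as a bar; each panel has its own y range, which does not start at 0. The knockout points of Stab2, Mrc1 and Scarb2 all lie below the controls and those of Scarb1 all above, while Lyve1 and Lrp1 spread over 1.44 and 1.33 log2 units within the knockout.

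Stab1 and Stab2 encode the stabilins, large receptors with fasciclin and EGF-like domains that take up hyaluronan (stabilin-2), modified lipoproteins and apoptotic cell surfaces. Stab2 read 10.49, 10.34, 10.99, 10.63 and 10.89 in knockout replicates 1 to 5 and 11.03, 11.48, 11.20, 11.34 and 11.02 in control replicates 1 to 5. The highest knockout array, replicate 3, lay just under the lowest control, replicate 5. The difference was -0.55 ± 0.15 (log2, SE; 95% interval -0.87 to -0.22), 1.46-fold lower, and did not pass by limma (adjusted p = 0.0974). Stab1 read 10.07, 10.09, 10.79, 10.49 and 10.66 in the knockout and 10.70, 11.20, 10.90, 11.16 and 10.78 in the control. Here 4 of 5 knockout arrays lay below every control, and knockout replicate 3 lay above control replicates 1 and 5. Stab1 differed by -0.53 ± 0.17 (95% interval -0.90 to -0.16), 1.44-fold, with an adjusted p of 0.163 by limma.

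The stabilins varied together. When each gene was centred on its control mean, the gene closest to Stab1 among all named genes was Stab2, and the gene closest to Stab2 was Stab1, with a root mean square distance of 0.0765 log2 units over the 10 arrays. Mrc1 came next to Stab2 (0.0952), and the gene next to Stab1 was Myo10, an unconventional myosin (0.104). Among all pairs of the 10 genes, Stab1 with Stab2, Stab2 with Mrc1 and Stab1 with Mrc1 (0.106) were the 3 closest. This describes these arrays, and the shift between groups is part of the likeness.

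Mrc1, the mannose receptor, binds mannose-ended glycoproteins and denatured collagen chains and supplies lysosomal enzymes to the cell. It read 10.66, 10.61, 11.14, 11.03 and 11.04 in knockout replicates 1 to 5 and 11.33, 11.58, 11.48, 11.54 and 11.38 in the controls. All knockout arrays were lower than all controls, and the gap between the groups, from 11.14 to 11.33, lay between knockout replicate 3 and control replicate 1. Mrc1 fell 1.48-fold (log2 fold change -0.57 ± 0.13 SE, 95% interval -0.85 to -0.29, adjusted p = 0.0440 by limma). Removing knockout replicate 1, 2 or 4, or control replicate 2, 3, 4 or 5, ended the call (adjusted p of 0.0731 to 0.107), while the fold change stayed between -0.63 and -0.50 without any single array. Macrophages also make Mrc1. Of the 10 macrophage markers 0 passed by limma, also 0 at an unadjusted p under 0.05, and with their mean as a covariate Mrc1 was at -0.58 ± 0.13 (adjusted p = 0.0496). With the hepatocyte list mean added to the fit its call ended (-0.52 ± 0.16, adjusted p = 0.207). With the replicate number as a block Mrc1 did not pass either.

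Scarb2 encodes LIMP-2, a class B scavenger receptor of the lysosomal membrane that carries beta-glucocerebrosidase to lysosomes. It read 8.59, 8.90, 9.004, 8.88 and 8.87 in knockout replicates 1 to 5 against 9.39, 9.41, 9.39, 9.48 and 9.59 in the controls. No knockout array came closer than 9.004 to the lowest control at 9.39, the widest separation relative to spread in the set. Scarb2 fell 1.52-fold (-0.61 ± 0.10, adjusted p = 0.00997 by limma), and it passed without any single array, with an adjusted p of 0.00945 to 0.0340. With the hepatocyte list mean in the fit it was at -0.53 ± 0.12 and the call ended (adjusted p = 0.0852). With the replicate number as a block Scarb2 did not pass either.

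Scarb1, the class B receptor that takes up HDL cholesterol, lay the other way. Its values were 8.78, 8.70, 8.85, 8.86 and 9.04 in the knockout and 8.34, 8.63, 8.31, 8.67 and 8.66 in the control. The lowest knockout array, replicate 2 at 8.70, was just above the highest control, replicate 4 at 8.67. The difference of 0.32 ± 0.11 (95% interval 0.07 to 0.57) did not pass by limma (adjusted p = 0.216). Hepatocytes also make Scarb1, and with the hepatocyte list mean in the fit the difference was 0.36 ± 0.14.

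**Figure D2:**
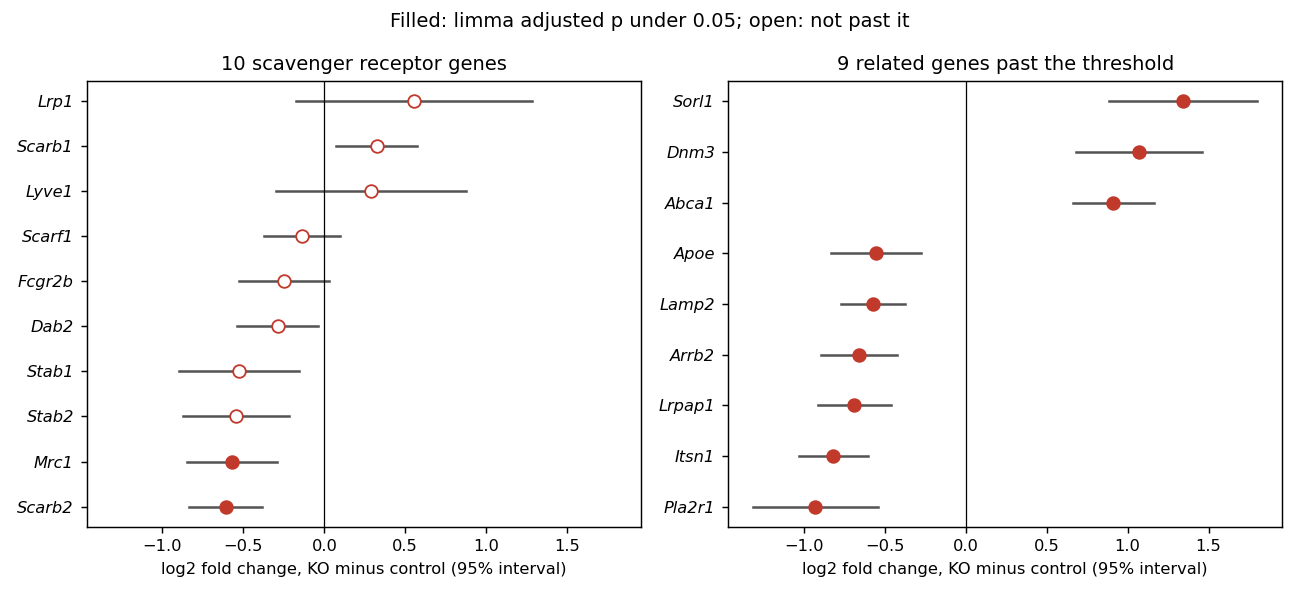
Log2 fold change, knockout minus control, on the x axis with its 95% interval from the limma fit, for the 10 scavenger receptor genes (left) and for the 9 related endocytosis genes past the threshold (right); filled points passed an adjusted p under 0.05. Scarb2 and Mrc1 are the filled points on the left, and on the right 6 genes lie lower and 3 higher.

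The DNA just before the annotated start sites of both genes that fell is shown because the deleted factor belongs to a family that binds the letters GATA. The sequences are RefSeq's for the mouse assembly GRCm38.p6, 250 bases up to the start, 5′ to 3′ on the strand of the gene, with GATA or its reverse complement TATC in capitals. Mrc1 lies on the plus strand of chromosome 2 (window chr2:14229164-14229413) and Scarb2 on the minus strand of chromosome 5 (window chr5:92505658-92505907).
Mrc1: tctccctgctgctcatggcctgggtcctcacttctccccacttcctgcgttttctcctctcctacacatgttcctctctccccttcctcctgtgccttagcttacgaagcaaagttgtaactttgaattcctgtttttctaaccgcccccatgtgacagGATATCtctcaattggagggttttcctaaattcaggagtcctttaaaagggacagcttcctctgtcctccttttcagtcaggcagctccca
Scarb2: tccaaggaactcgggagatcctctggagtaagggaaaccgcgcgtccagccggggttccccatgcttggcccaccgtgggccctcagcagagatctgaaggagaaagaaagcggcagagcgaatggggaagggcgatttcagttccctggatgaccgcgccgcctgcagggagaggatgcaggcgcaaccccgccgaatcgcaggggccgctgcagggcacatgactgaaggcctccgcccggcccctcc
The Mrc1 window holds the letters GATA 91 to 88 bases before the start and, overlapping them, TATC 89 to 86 bases before it. The Scarb2 window holds neither. Promoter sequences were matched for 7 of the 10 genes, with 8 start sites. GATA or TATC occurred in 4 of the 8 windows (Stab1, Stab2, Mrc1 and 1 of 2 for Dab2), 50.0%, against 53.6% of 32851 mouse promoter windows of this length. The longer forms, GATA with A or T before it and A or G after it, searched on both strands, occurred in 1 of the 8, at a Dab2 start site, against 26.5% of all windows. The arrays hold no measurement of GATA4 at these sites.

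Lyve1, a hyaluronan receptor related to CD44 and known from lymphatic and sinusoidal endothelium, was the most uneven within the knockout. It read 9.98, 10, 9.62, 10.04 and 8.60 in knockout replicates 1 to 5 and 9.87, 9.12, 9.10, 9.39 and 9.30 in the controls. Knockout replicates 1, 2 and 4 were above every control, while replicate 5 was below every control. The highest control was replicate 1, the array that stood apart. The difference was 0.29 ± 0.27 (95% interval -0.30 to 0.88, adjusted p = 0.697 by limma). It was 0.55 ± 0.17 without knockout replicate 5 (adjusted p = 0.149) and 0.42 ± 0.26 without control replicate 1, and it turned to -0.01 ± 0.29 with the hepatocyte list mean in the fit. Among the knockout arrays the hepatocyte list mean was highest in replicates 4 and 1 (8.67 and 8.65), 7.44 in replicate 2 and lowest in replicate 5 (7.04). Control replicate 1, the highest control for Lyve1, had the lowest hepatocyte list mean of the controls (6.92). The part of hepatocyte RNA in the Lyve1 values was not tested further. Lymphatic markers (Prox1, Pdpn, Mmrn1 and Flt4) averaged 5.88 to 6.64 in the knockout and 5.58 to 6.04 in the control, with differences of 0.86, 0.57, 0.70 and -0.38 in that order. Of these 4 markers 0 passed by limma, and 4 had an unadjusted p under 0.05, against 13.6% of all genes. Their mean was also lowest in knockout replicate 5 (5.88), next lowest in replicate 3 (6.12) and higher in replicates 1, 4 and 2 (6.34, 6.43 and 6.64), with Lyve1 likewise lowest in replicate 5 and next lowest in replicate 3. The cholangiocyte list mean was lowest in knockout replicate 5 too (5.07). Among the controls the lymphatic list mean was lowest in replicate 1 (5.58), where Lyve1 was highest. No fit with the lymphatic or cholangiocyte list was made, and their part in the Lyve1 values was not tested.

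Fcgr2b encodes the inhibitory Fc receptor with which sinusoidal endothelium clears small immune complexes. It read 11.41, 11.27, 11.78, 11.68 and 11.78 in the knockout and 11.73, 11.94, 11.71, 12 and 11.78 in the control. Knockout replicates 1, 2 and 4 lay below every control and replicates 3 and 5 within their range. The difference was -0.25 ± 0.13 (95% interval -0.53 to 0.03, adjusted p = 0.440 by limma). B cells also carry this receptor, and their markers Cd79a, Cd79b, Ms4a1 and Pax5 averaged no more than 3.74 on any array, near the array median. The part of B cells in the Fcgr2b values was not tested.

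Scarf1, a class F receptor for acetylated LDL and for dying cells, read 7.86, 7.82, 8.15, 7.88 and 8.11 in the knockout and 7.91, 8.21, 8.15, 8.16 and 8.10 in the control. Knockout replicates 1, 2 and 4 lay under the lowest control, replicate 1, and knockout replicates 3 and 5 inside the control range. The difference was -0.14 ± 0.11 (95% interval -0.37 to 0.10, adjusted p = 0.635 by limma).

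Lrp1, a large member of the LDL receptor family that takes up apolipoprotein E remnants and protease complexes, spread most widely. It read 7.19, 7.87, 7.42, 6.54 and 7.61 in the knockout and 5.82, 6.77, 6.44, 7.67 and 7.16 in the control. The groups overlapped over most of their range, and control replicate 1 was the lowest of all 10 arrays. The difference of 0.55 ± 0.33 (95% interval -0.17 to 1.28) did not pass by limma (adjusted p = 0.525), and it was 0.32 ± 0.29 without control replicate 1. Array by array, Lrp1 moved with the macrophage list. That list was at 5.48 in control replicate 1 and 8.37 in control replicate 4, the lowest and highest controls for Lrp1, and the 5 knockout arrays had the same order for both. The order of the 5 controls was also the same for Lrp1 and for the hepatic stellate cell list (5.47 in replicate 1 to 7.44 in replicate 4). In the knockout the stellate list mean was 6.51 to 8.29, 0.53 higher on average than in the control, with 7 of 8 markers above 0. Of these 8 markers 0 passed by limma and 3 had an unadjusted p under 0.05, against 13.6% of all genes. Every knockout array was above every control for Des and Col1a1, as in 2.55% of all genes. Dcn, Lrat and Colec11 differed by 0.02, 0.20 and -0.36. With the macrophage list mean as a covariate, the standard error of the Lrp1 difference went from 0.33 to 0.17, and the difference was 0.35 (adjusted p = 0.370). Macrophages, stellate cells and hepatocytes make Lrp1. The share of each in these values was not tested.

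Dab2, the clathrin adaptor that binds receptor tails and brings them into coated pits, read 9.32, 9.31, 9.75, 9.42 and 9.49 in the knockout and 9.76, 9.82, 9.66, 9.91 and 9.59 in the control. All but knockout replicate 3 lay below every control. The difference was -0.29 ± 0.11 (95% interval -0.54 to -0.04, adjusted p = 0.282 by limma).

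For some of these genes the spread within a group went along with the mean of the pan-endothelial list on the array. The amount of endothelial RNA itself was not measured. Knockout replicate 3 was highest of its group in 7 of the 10 genes, and knockout replicate 2 lowest in 6. The pan-endothelial list mean was 10.18 in knockout replicate 3, and 9.71 and 9.76 in knockout replicates 1 and 2. For Stab1 the order of the 5 arrays was the same as that of the pan-endothelial list in both groups, and for Mrc1 and Scarf1 it was the same in the controls. For Stab1, Mrc1 and Scarf1 the order of the controls was also that of the list of sinusoidal markers given below. Taken relative to the pan-endothelial list of the same array, Stab1 lay 0.33 to 0.61 above the list in the knockout and 0.92 to 1.16 above it in the control. Mrc1 lay 0.85 to 1.03 above it in the knockout and 1.51 to 1.56 in the control, where its SD of 0.11 became 0.02. The SD was smaller on this scale in both groups for 6 genes (Stab1, Stab2, Mrc1, Fcgr2b, Scarf1 and Dab2). It was larger in both groups for Lyve1 (0.61 to 0.77 in the knockout and 0.31 to 0.40 in the control) and Scarb2 (control 0.09 to 0.15), and for Scarb1 and Lrp1 larger in the knockout and smaller in the control. On this relative scale 6 of the 10 genes had knockout arrays all below the controls (Stab1, Stab2, Mrc1, Fcgr2b, Scarb2 and Dab2), against 1.87% of all genes. The groups of Scarb1, which did not overlap in the values themselves, overlapped on it (0.29 ± 0.13, adjusted p = 0.528 by limma). By limma on that scale Stab2 passed (-0.58 ± 0.12, adjusted p = 0.0368), as did Mrc1 (adjusted p = 0.0205) and Scarb2 (0.0360), while Stab1 stood at 0.0512. On that scale 1.22% of all genes passed. The list of 10 sinusoidal markers, among them the driver gene Clec4g, averaged 9.96 to 10.41 in the knockout and 10.60 to 10.90 in the control. In the values themselves, not on the relative scale, 7 of these 10 markers fell by limma, against 0.846% of all genes. Of the 10 pan-endothelial markers 0 passed there. By limma 2 of them had an unadjusted p under 0.05, against 13.6% of all genes.

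**Figure D3:**
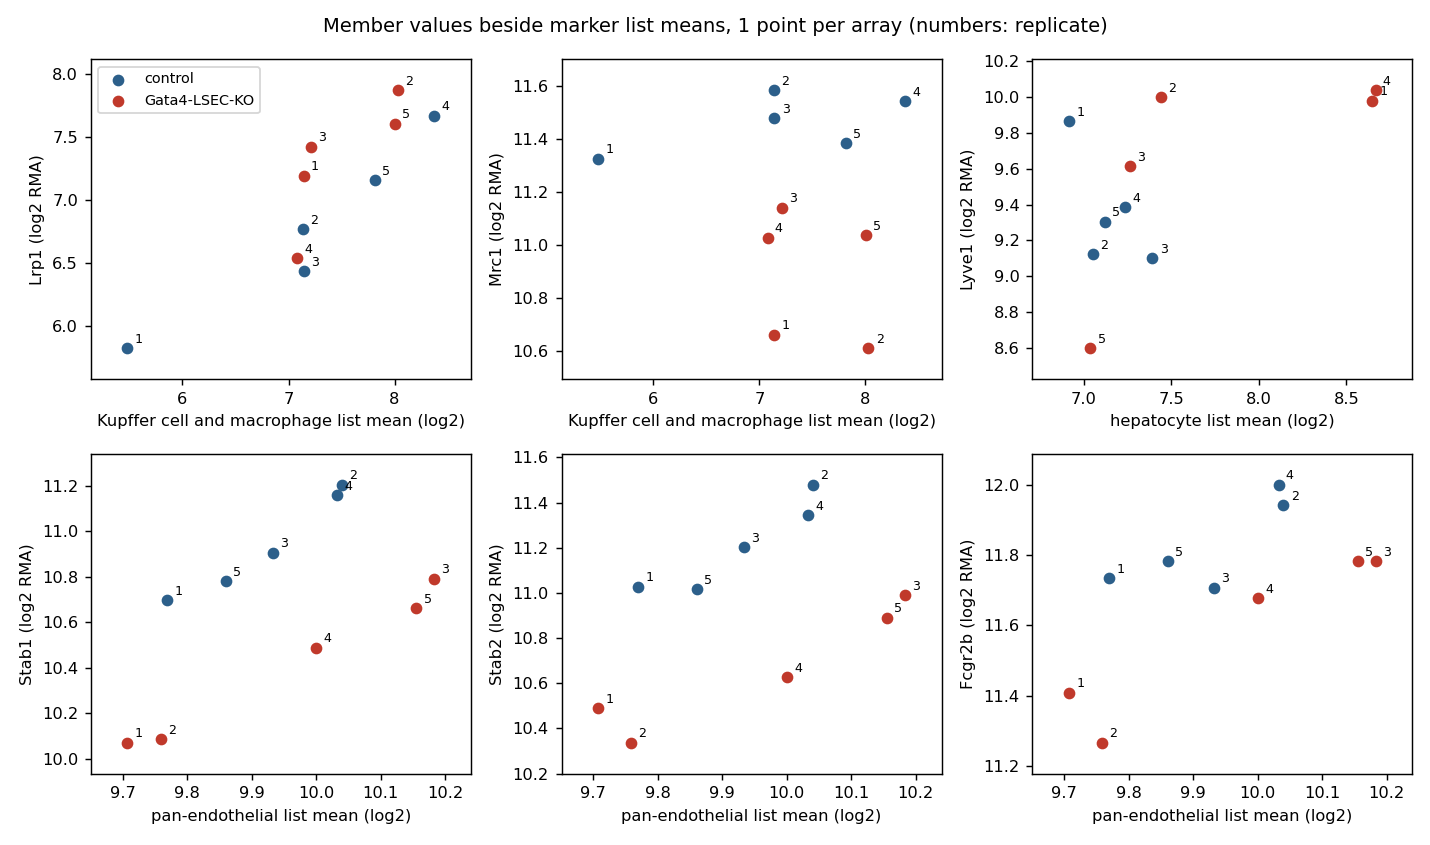
Log2 RMA value of a gene (y axis) against the mean log2 value of a marker list on the same array (x axis; Kupffer cell and macrophage for Lrp1 and Mrc1, hepatocyte for Lyve1, pan-endothelial for the others), 1 point per array, control in blue and knockout in red, with replicate numbers. Within each group Stab1, Stab2 and Fcgr2b mostly lie higher where the pan-endothelial list is higher, with the knockout points below control points at a like list level, and Lrp1 lies lowest in control replicate 1, where the macrophage list is at 5.48.

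How far the calls rest on single arrays differed between the genes. Scarb2 passed in 10 of 10 fits that left out 1 array, Mrc1 in 3, and Stab1 and Stab2 in 0 by limma. The adjusted p of Stab2 lay between 0.0682 (without control replicate 1) and 0.214 (without knockout replicate 1), and that of Stab1 between 0.101 and 0.328. The unadjusted p with all arrays was 0.00346 for Stab2 and 0.00909 for Stab1. With arrays weighted by their agreement, which gave control replicate 1 a weight of 0.203, Stab2 (adjusted p = 0.0279) and Stab1 (0.0470) passed by limma.

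**Figure D4:**
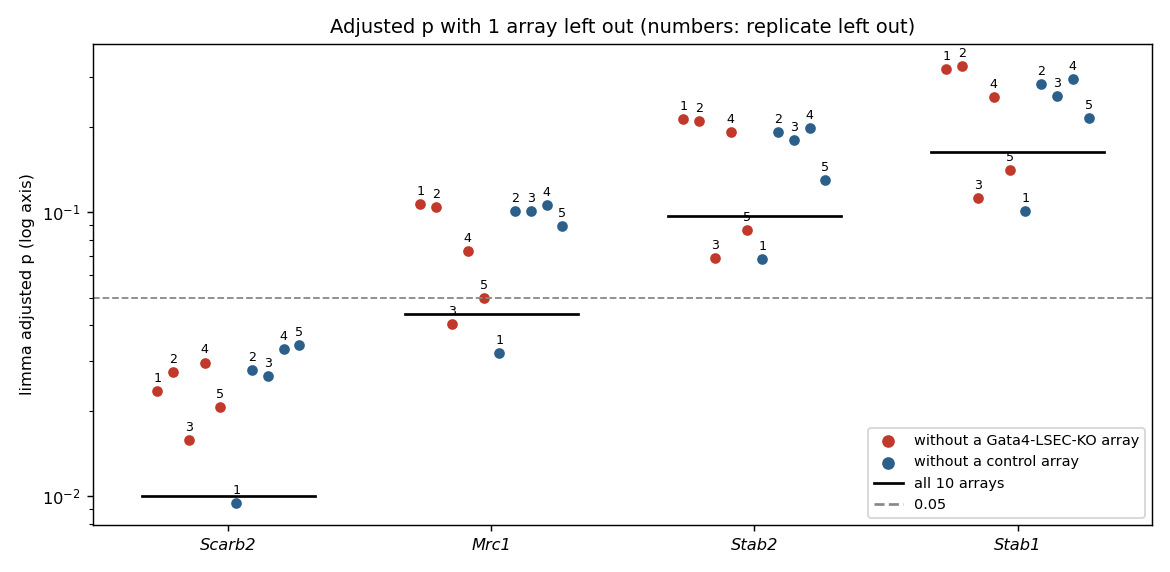
Limma adjusted p (y axis, log scale) of Scarb2, Mrc1, Stab2 and Stab1 (x axis) when 1 of the 10 arrays was left out, with the replicate left out beside each point, red for knockout and blue for control; the black bar is the value with all 10 arrays and the dashed line is 0.05. All points of Scarb2 lie under the line and all points of Stab1 and Stab2 above it, with the lowest point of each gene at control replicate 1.

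Around these receptors, 129 of 134 listed genes of scavenging, endocytosis and degradation were measured. Of these, 3 rose and 6 fell and 120 did not pass, or 6.98% against 2.14% of all genes, with a median log2 fold change of -0.02, the same as over all genes. By limma 36 of the 129 had an unadjusted p under 0.05, against 13.6% of all genes. Every knockout array lay below every control for 16 and above for 6, against 2.37% and 2.55% of all genes. These lists too were chosen with earlier results of these data known, so their shares do not test the lists. With dim genes left out, 593 of 12390 genes passed, and 14 related genes. Without control replicate 1, 15 related genes passed, with 5 higher and 10 lower. The 9 genes remained, and Ap2a2, Fcgrt, Hip1r, Hyal2, Igf2r and Layn were added. Relative to the pan-endothelial list 6 of the 9 passed, and Apoe, Arrb2 and Lamp2 did not (adjusted p of 0.233, 0.0541 and 0.0532 by limma). With the hepatocyte list mean in the fit Abca1, Itsn1 and Lamp2 passed and the other 6 did not, with adjusted p-values from 0.05003 to 0.183.

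In the LDL receptor family 2 of 13 genes passed. Lrpap1, the chaperone that escorts LRP1 and its relatives through the secretory pathway, read 6.69 to 7.08 in the knockout and 7.58 to 7.74 in the control and fell 1.61-fold (-0.69 ± 0.10, adjusted p = 0.00519 by limma). Sorl1, an intracellular sorting receptor, rose (1.34 ± 0.21, adjusted p = 0.00647), from 2.93 to 3.76 in the control to 4.32 to 5.32 in the knockout. Its control values lie around the array median, so its fold is a ratio of array values. Among 3 relatives of the mannose receptor, Pla2r1, the receptor of secreted phospholipases, fell 1.90-fold (-0.93 ± 0.18, adjusted p = 0.0200). Removing knockout replicate 1 or 2, or control replicate 2, 3, 4 or 5, took its adjusted p to between 0.0515 and 0.0563. Ly75 and Mrc2 did not pass.

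Of 7 genes of HDL and cholesterol transfer 2 passed. Abca1, which moves cholesterol from cells to apolipoproteins, rose 1.88-fold (0.91 ± 0.11, adjusted p = 0.00159 by limma), from 6.80 to 7.28 in the control to 7.80 to 8.10 in the knockout. Apoe, a ligand of LDL receptor family members, fell (-0.55 ± 0.13, adjusted p = 0.0470), a call that held only without control replicate 1 or 2 among the fits with 1 array left out and otherwise reached 0.113. Hepatocytes and macrophages also make Apoe. In the coat and adaptor list 3 of 33 passed. Itsn1, a scaffold of clathrin-coated pits, fell 1.76-fold (-0.82 ± 0.10, adjusted p = 0.00118), with 5.90 to 6.15 in the knockout and 6.77 to 6.99 in the control. Arrb2, the adaptor beta-arrestin 2, fell (-0.66 ± 0.11, adjusted p = 0.00850). Dnm3, a dynamin, rose (1.07 ± 0.18, adjusted p = 0.00911) from control values of 3.21 to 3.77, near the array median.

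Among 10 genes of the lysosomal membrane and its partners, Lamp2 fell 1.48-fold (-0.57 ± 0.09, adjusted p = 0.00694 by limma), at 9.55 to 9.75 in the knockout and 10.16 to 10.35 in the control. It sits in the same membrane as the product of Scarb2. The other 9 of this list did not pass.

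No gene passed by limma in 5 lists, beside 2.14% of all genes that passed. Over all genes 13.6% had an unadjusted p under 0.05 by limma. The genes named here are the 2 with the smallest p of each list. Of 13 other scavenger receptors 0 passed and 3 had an unadjusted p under 0.05 by limma. Among them Msr1, a class A receptor, was at -0.65 ± 0.16 (adjusted p = 0.0652) and Scara3 at 1.03 ± 0.29 (0.107). Of 13 genes that make, bind or break down hyaluronan, 0 passed by limma and 4 had an unadjusted p under 0.05, with the hyaluronan receptors Layn at -0.51 ± 0.12 (adjusted p = 0.0612) and Cd44 at 0.74 ± 0.19 (0.0834). Of 7 other Fc receptor genes 0 passed by limma and 1 had an unadjusted p under 0.05, the neonatal receptor gene Fcgrt at -0.54 ± 0.16 (adjusted p = 0.123), ahead of Fcer1g at -0.39 ± 0.21. Of 25 endosomal sorting genes 0 passed by limma and 3 had an unadjusted p under 0.05, with Rab7 at -0.30 ± 0.10 (adjusted p = 0.194) and Ehd3 at -0.48 ± 0.18 (0.263). Of 5 stabilin ligands 0 passed by limma and 0 had an unadjusted p under 0.05, with Sparc at 0.21 ± 0.13 and Postn at 0.76 ± 0.44.

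The genes whose pattern over the 10 arrays lay closest to the other members were found by the same distance. For Mrc1 they were Myo7a, a myosin (0.0853), and the kinase gene Prkcq (0.0867). For Scarb2 they were Bend4 (0.0933) and Tbc1d1 (0.106), with Lrpap1 next at 0.108. For Scarf1 they were Lman1 (0.0394) and Tasor (0.0518), for Fcgr2b Peak1 (0.0659) and the lysosomal chloride transporter gene Clcn7 (0.0712), and for Scarb1 Sf3b3 (0.0686) and Gabrr2 (0.0713). Dab2 was closest to Txnip (0.0772) and D930007P13Rik (0.0823). Lyve1 (Tlcd1 at 0.203 and B4galnt1 at 0.204) and Lrp1 (Tnfrsf1b at 0.243 and Abca9 at 0.254) had no gene as close. Gabrr2, D930007P13Rik and Tlcd1 had control means of 2.55, 2.34 and 3.66, under the array median of 3.71. The distance takes no account of how bright a gene is.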

How the data were processed

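The 10 genes and all gene lists were chosen with earlier results of these data known. The authors' deposited values are log2 expression values from RMA, a method that corrects background, equalises the distributions of the arrays and summarises probes, per the submitters' processing notes (no version stated). The log2 scale was judged from the values. No detection call was used, and no other background correction was tried. The table holds 25428 probe sets. GEO's platform annotation pairs 24705 with 1 gene symbol and 0 with several, and the remaining 723 were left out. 1 repeated symbol was represented by the brighter probe set, which left 24704 genes. No pair of arrays was identical.

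Knockout and control were compared with limma 3.58.1 (R 4.3.3) by lmFit and eBayes on all 10 arrays, with no covariate and no filter. P-values are two-sided and Benjamini-Hochberg adjusted over 24704 genes. The number of arrays, 5 a group, limits the precision. On simulated data with these means and spreads (10 simulations of 24704 genes, 200 of them changed), each gene was drawn independently of the others. Of genes changed by 0.5 log2 units 13.0% were recovered, and of those changed by 1 67.6%, and 5.78% of calls were false.

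The genes named were the 10, Gata4, each related gene past the threshold, the 2 smallest p-values of each related list without a call, and the 2 genes closest to each member. Lrpap1 as a neighbour, Ly75 and Mrc2, the genes added without control replicate 1, and the markers were named outside this rule. Of 207 other list entries 199 were measured, and 8 are not analysed here. The alternatives were the replicate number as a block, each array left out, an intensity trend with a robust prior, array weights, no dim genes, scaling to the pan-endothelial list, and the macrophage or hepatocyte list mean as a covariate. Deviations from the group means correlated at -0.05, 0.04, 0.01, 0.02 and -0.16 between same-numbered arrays 1 to 5. Arrays with different numbers were not compared, so these values do not settle whether the replicate numbers pair the arrays.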

Additional observations from a re-analysis of the deposited data

Results flagged for a closer look

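Among 47 named genes in both groups (94 groups of 5 arrays), 5 groups held an array whose distance to its nearest neighbour was large against the range of the group, which chance gives in about 1 group in 20, and 0 of them belonged to the 10 scavenger receptor genes. Lrpap1 in knockout replicate 1 read 6.69, with the next knockout array at 6.99. Fcer1g in control replicate 1 read 8.04 and the next control 8.89. Postn in control replicate 1 read 3.97, with the next control at 5.39. Tlcd1, the gene closest to Lyve1, read 2.81 in knockout replicate 5, and the next knockout array was at 4.01. Lyve1 was lowest in that array as well (8.60, with the next knockout array at 9.62) and fell just short of the limit for flagging. D930007P13Rik in knockout replicate 3 read 2.27 against 2.08 in the next array, both under the array median.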

How the results depend on the processing

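Leaving out single arrays gave 287 to 737 genes past the threshold among all genes (529 with all arrays), 1 to 2 of the 10 scavenger receptor genes (2 with all arrays) and 7 to 15 of the related genes (9 with all arrays). With the replicate number as a block, limma called 275 genes in all, 0 of the 10 (5 at an unadjusted p under 0.05) and 4 related genes. Apoe, Arrb2, Dnm3, Lamp2 and Lrpap1 were then not called (adjusted p of 0.0517 to 0.0944). Array weights gave 1070, 4 and 20. Adding the hepatocyte list mean to the fit gave 204, 0 (4 at an unadjusted p under 0.05) and 3. Scaling to the pan-endothelial list gave 302 genes in all and 6 related genes, and leaving out dim genes gave 14 related genes. The Lyve1 difference turned to -0.0066 with the hepatocyte covariate, and the cause was not tested. No other difference of the 10 genes changed direction under the alternatives run. The median of all genes stayed between -0.06 and -0.01. In the simulations 13.0% of genes changed by 0.5 log2 units were recovered, averaged over genes of all spreads. With 200 genes changed and each gene drawn independently, this share is not that of Stab1 or Stab2.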
